A study of Homo sapiens with 15 samples.

Results

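The 9 genes described here encode proteins of the tight junction, the seal between neighbouring epithelial cells: the claudins CLDN1, CLDN3, CLDN4 and CLDN7, the MARVEL proteins OCLN and MARVELD2, the scaffolds TJP1 and TJP3, and the adhesion molecule F11R. They were chosen by name, as the genes of the deposited expression table whose symbol matched a list of 9, and all 9 were found among its 33158 genes. The study sequenced mRNA from 3 established triple negative breast cancer cell lines, in 5 groups of 3 libraries each. SUM149PT and HCC1937 were each sorted into cancer stem cells (CSCs), defined by the surface phenotype CD44+CD24-/low, and the remaining cells (non-CSCs). SUM159PT was sequenced unsorted, and the study treats it as CSCs. The labels give no treatment for any group. Expression was given as FPKM, a count of fragments divided by transcript length and by the mapped total of the library, so levels of different genes are compared here per length. The depth of the libraries is unknown, because the table holds no counts.

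Tight junctions form a belt near the apical end of epithelial cells, where strands of claudins decide which ions and small molecules pass between cells. Occludin and tricellulin, the products of OCLN and MARVELD2, sit in the strands and at the corners where cells meet, ZO proteins such as the products of TJP1 and TJP3 tie the strands to the actin cytoskeleton, and JAM-A, the product of F11R, takes part in assembly and polarity. In the breast such junctions join the luminal cells of the ducts, and a low level of claudin genes is the mark by which a subtype of breast tumours is named.

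The sort was visible in the RNA. CD24 read 7.97, 7.64 and 7.61 FPKM in SUM149PT CSC libraries and 146.8, 137.4 and 134.3 in non-CSC libraries. In HCC1937 its FPKM was 23.6, 22.5 and 23.9 in CSCs and 166.5, 141.4 and 142.2 in non-CSCs. The CSC libraries were low for CD24 in both lines, with no overlap. CD44 had a log2 fold change of 0.39 between the fractions of SUM149PT (adjusted p = 0.00168) and of 0.12 in HCC1937 (adjusted p = 0.314), below 2-fold in both. SUM159PT had 0.759, 0.682 and 0.745 FPKM for CD24 and 28.6, 29.4 and 28.4 for CD44, both the lowest of the 5 groups, and CD44 was called lower there than in CSCs of SUM149PT (−1.55) and of HCC1937 (−1.88). Of 3 receptor genes that are low in triple negative cancer, PGR was listed at 0.00303 FPKM or less in the 15 libraries. ESR1 had a mean of at most 1.66 FPKM in any group and fell in CSCs of both lines. With a mean of 0.0743 FPKM in SUM149PT CSCs, it was tested in that line only through non-CSCs, which fixed its direction. ERBB2 had means of 3.55 to 19.1 FPKM over the 5 groups and was not called between the fractions of either line. A gene was called where limma gave an adjusted p of at most 0.05 and the change was at least 2-fold, and "rose" and "fell" are used for called genes. Standard errors of log2 fold changes are given as SE.

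Markers of epithelial and mesenchymal cells moved with the fractions. The counts of markers stand beside 12.8% of all genes higher and 22.1% lower in CSCs of SUM149PT, and 2.71% higher and 6.0% lower in HCC1937. Of 7 epithelial markers (KRT8, KRT18, KRT19, KRT5, KRT14, EPCAM and CDH1), 6 fell in CSCs of each line, and KRT14 was not called in either. Their summed FPKM was 129.3, 133.7 and 131.3 in the CSC libraries of SUM149PT and 1826, 1782 and 1805 in its non-CSC libraries. In HCC1937 the sum was 635.1, 588.4 and 532.4 in CSCs and 1617, 1639 and 1403 in non-CSCs. In SUM159PT it was 292.8, 277.1 and 291.5. The most abundant of them by FPKM was KRT19 in SUM149PT non-CSCs, with a mean of 1127, and KRT18 in HCC1937 non-CSCs and SUM159PT. It was KRT18 or KRT19 in SUM149PT CSCs and KRT8 or KRT18 in HCC1937 CSCs, by library. No epithelial marker was listed at 0 in any library. Of 5 mesenchymal markers (VIM, CDH2, FN1, SPARC and ZEB1), 4 rose in CSCs of SUM149PT, all but FN1, and 5 rose in CSCs of HCC1937. Their sum was 2679.8, 2848 and 2747 FPKM for CSCs and 498.2, 488.7 and 557.8 for non-CSCs of SUM149PT. It was 1150.1, 1010.4 and 988.0 FPKM for CSCs and 157.5, 231.3 and 205.9 for non-CSCs of HCC1937, and 1279.9, 1294 and 1311 in SUM159PT. VIM was the most abundant in 14 of the 15 libraries. The part of both lists in the results on tight junction genes was not tested.

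Markers of other cell types were near 0 for some lists and not for others. Of 5 leukocyte markers, CD3E was listed at 0 in the 15 libraries and PTPRC at 0.0986 FPKM or less. CD14 was the 1 leukocyte gene high enough to be tested. It made up nearly the whole leukocyte sum, at 2.68, 3.08 and 2.21 FPKM for CSCs and 52.4, 48.6 and 52.9 for non-CSCs of SUM149PT, where it fell with a log2 fold change of −4.23 (SE 0.126, adjusted p = 3.80e-06). In HCC1937 the FPKM of CD14 was 65.0, 62.4 and 53.6 in CSCs and 29.5, 32.8 and 28.5 in non-CSCs, just under a 2-fold difference in the other direction. In SUM159PT it was 19.7, 19.9 and 16.6. Of 5 endothelial markers, CLDN5, the claudin of vessels, was at 0.0301 FPKM or less in every library. The sum of the 5 was at most 1.83 FPKM, with 3 of 3 tested genes lower in CSCs of SUM149PT and 1 of 2 in HCC1937. In CSCs, CDH5 (0.0124 FPKM) and VWF (0.0433) of SUM149PT and CDH5 (0.0706) of HCC1937 had means under the minimum of 0.1 FPKM. There these genes were tested only through non-CSCs, so only a lower call was possible. VWF was the most abundant of the 5 endothelial markers in SUM149PT non-CSCs, PECAM1 in the other sorted groups and KDR in SUM159PT. Of 5 fibroblast markers, COL1A1 and PDGFRB rose and DCN fell in CSCs of SUM149PT among 4 tested. In HCC1937 COL1A2 rose among 3 tested. The fibroblast sum was 226.9, 230.0 and 224.5 FPKM for CSCs and 65.1, 66.7 and 68.3 for non-CSCs of SUM149PT. In HCC1937 the same sum was 12.4, 12.7 and 11.7 against 6.08, 7.26 and 7.81, and in SUM159PT it was 40.4, 45.4 and 43.2. COL1A1 was the most abundant of them in the 15 libraries. The part of these lists in the results was not tested.

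In SUM149PT the claudin composition turned over between the fractions: CLDN4 and CLDN7, the most abundant members per length in non-CSCs, fell more than 20.0-fold in CSCs, while CLDN1 rose. Of the 9 members, 8 reached a mean of 0.1 FPKM over the 6 libraries and were tested. Of these 1 rose in CSCs, against 12.8% of all 16037 genes tested, and 7 fell, against 22.1%. CLDN3, 1 of the 7, had a mean of 0.0458 FPKM in CSCs. It reached the minimum only through non-CSCs, which fixed its direction. The median log2 fold change was −2.42 for the 8 tested members and −0.11 for all genes. In HCC1937 no member rose in CSCs, against 2.71% of 15582 genes, and limma gave 0 of 9 with a higher level at an unadjusted p under 0.05. In that line 5 of 9 fell, against 6.0% of all genes, with a median of −1.59 against −0.03. Each library came from a whole cell fraction, so fewer cells with a transcript and less of it per cell cannot be told apart. Nothing in the labels says that the 3 libraries of a group were separate cultures, so the p-values measure the spread between libraries, which may be technical.

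**Figure D1:**
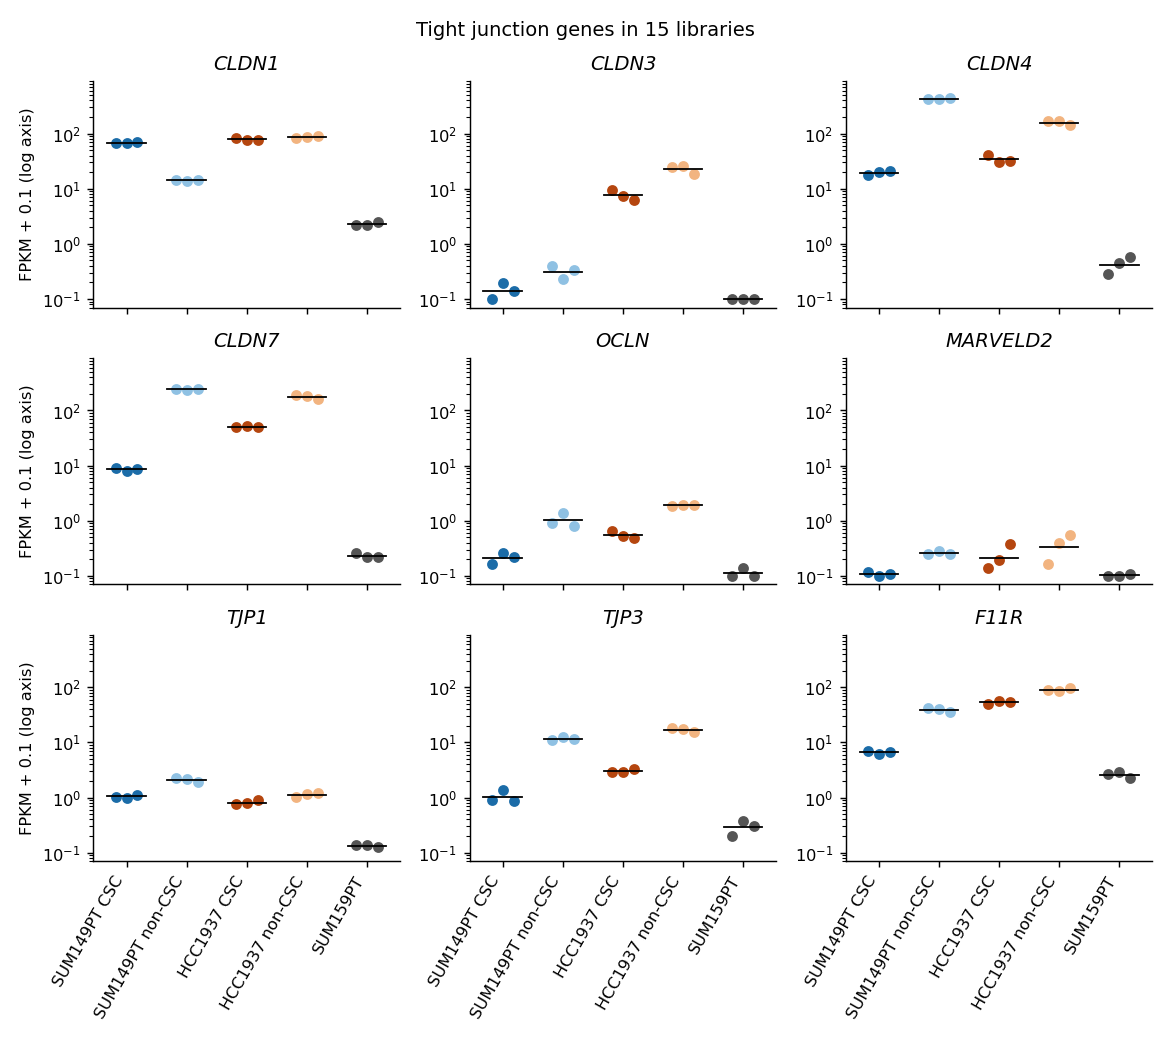
FPKM + 0.1 (log axis) of the 9 tight junction genes in the 15 libraries, with one point per library and a line at the mean of the log values of each group of 3. CLDN4, CLDN7, TJP3 and OCLN were lower in CSCs than in non-CSCs of both sorted lines, and SUM159PT was the lowest group for each gene, level with SUM149PT CSCs for CLDN3 and MARVELD2.

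CLDN4, a claudin of simple epithelia, was listed at 422.5, 432.6 and 446.1 FPKM in the non-CSC libraries of SUM149PT and 17.6, 19.9 and 20.5 in its CSC libraries. CLDN4 in HCC1937 was at 169.0, 166.0 and 141.0 FPKM in non-CSCs and 41.0, 31.0 and 32.2 in CSCs. CLDN4 in SUM159PT was at 0.180, 0.352 and 0.489 FPKM. The non-CSC libraries were high and the CSC libraries low in both lines, and no pair of neighbouring groups overlapped in the order SUM149PT non-CSC, HCC1937 non-CSC, HCC1937 CSC, SUM149PT CSC, SUM159PT. The mean FPKM in non-CSCs of SUM149PT was 22.5 times that in CSCs, a log2 fold change of −4.48 (SE 0.0759, adjusted p = 1.49e-06). HCC1937 had a log2 fold change of −2.19 (SE 0.139, adjusted p = 0.000422) for CLDN4. The difference of these log2 fold changes, SUM149PT minus HCC1937, was −2.29 (SE 0.162, adjusted p = 1.42e-06) by the interaction test over the 12 sorted libraries. In SUM149PT non-CSCs CLDN4 ranked 82 of 33158 genes by mean FPKM, and in SUM159PT 11087.

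CLDN7, a claudin found along the lateral membrane as well as in the strands, followed the same order of groups as CLDN4, again with no overlap between neighbours. Its FPKM was 241.1, 239.8 and 243.0 in non-CSCs and 8.77, 7.98 and 8.68 in CSCs of SUM149PT. CLDN7 in HCC1937 was at 192.0, 183.8 and 159.6 FPKM in non-CSCs and 50.8, 51.1 and 49.0 in CSCs. CLDN7 in SUM159PT was at 0.160, 0.119 and 0.119 FPKM. CSC libraries were low in both lines, and the gap was wider in SUM149PT, where the ratio of mean FPKM was 28.5. The log2 fold change was −4.82 (SE 0.0600, adjusted p = 1.40e-06) in SUM149PT and −1.82 (SE 0.0898, adjusted p = 0.000207) in HCC1937. The difference between the lines was −3.00 (SE 0.103, adjusted p = 1.70e-08), the most negative among the 9 members. CLDN7 overlaps 2 annotated coding genes, AC003688.1 on the same strand, which is not in the table, and ELP5 on the opposite strand. The strand of the libraries and the division of reads between these genes are not given. ELP5 had mean FPKM of 5.46 for CSCs and 4.25 for non-CSCs in SUM149PT, and 12.6 and 10.7 in HCC1937, and it was not called in either line.

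The windows of 250 bases before annotated starts were read from RefSeq (GRCh38.p14), where 8 of the 9 members, all but F11R, had an entry, with 14 windows. They were searched for the E-box letters CACCTG, which read CAGGTG on the other strand, and for AACCGGTT, a sequence that Grainyhead factors can bind and that reads the same on both strands. Both were chosen after the windows had been seen. At least 1 E-box match was in 17.5% of all 35116 windows of that length, and 4 or more in 43 windows (0.12%). The window before start 1 of CLDN7 was among these 43. AACCGGTT was in 41 windows (0.12%) and in 0 of the 14. A match is a description of letters, not a site. The CLDN7 window, chr17:7262479-7262728 on the reverse strand, lies wholly in annotated untranslated sequence of a longer CLDN7 transcript (GENCODE 29), so 30 bases around each match are shown because this gene had the lowest log2 fold change of the members in SUM149PT. They are chr17:7262635-7262664, chr17:7262596-7262625 and chr17:7262479-7262508, on the reverse strand, with the matches in capitals.
CLDN7 start 1 a: tttcttcctcctCACCTGggcaaggagggg
CLDN7 start 1 b: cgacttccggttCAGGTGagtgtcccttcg
CLDN7 start 1 c: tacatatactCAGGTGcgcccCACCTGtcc
The windows of CLDN3 and CLDN4 and the window before start 2 of CLDN7 held no E-box match, nor did the window of CLDN1, the claudin that moved the other way. The 221 bases of the CLDN1 window outside annotated untranslated sequence of the gene, chr3:190322476-190322696 on the reverse strand, are shown beside them for that reason, with no letters in capitals.
CLDN1 start 1: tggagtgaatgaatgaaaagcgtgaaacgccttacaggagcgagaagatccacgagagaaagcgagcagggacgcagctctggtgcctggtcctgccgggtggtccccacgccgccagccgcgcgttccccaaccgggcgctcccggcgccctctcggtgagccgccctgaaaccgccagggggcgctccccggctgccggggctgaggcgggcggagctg

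**Figure D2:**
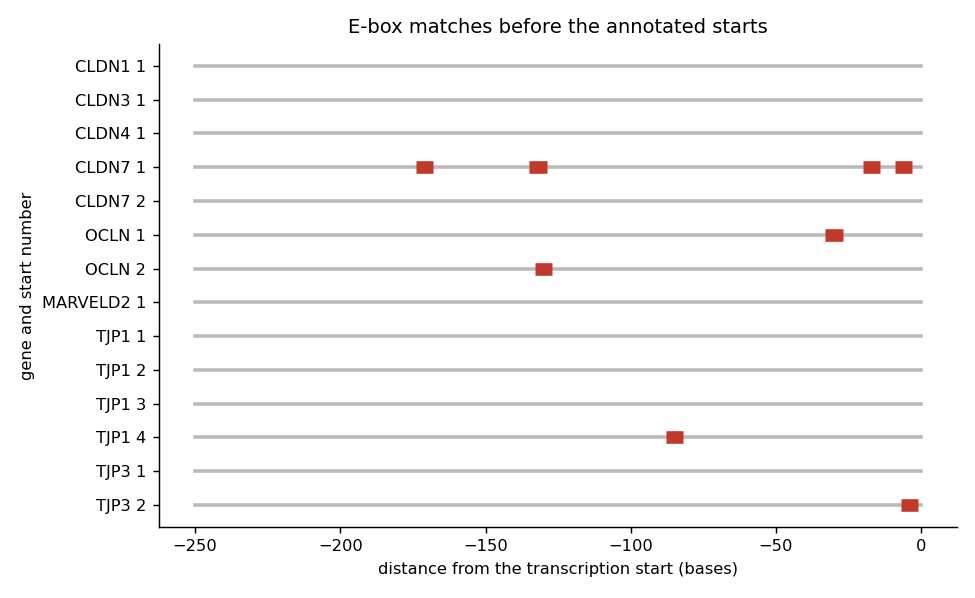
Positions of E-box letters in the 14 windows of 250 bases before the annotated starts of 8 tight junction genes, as distance from the start in bases, with one grey line per window and a red block per match. CLDN7 start 1 held 4 matches, OCLN starts 1 and 2, TJP1 start 4 and TJP3 start 2 held 1 each, and the other windows 0.

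CLDN1, a barrier claudin of skin and of many other epithelia, was listed at 68.3, 68.5 and 69.1 FPKM in SUM149PT CSC libraries and 14.1, 13.9 and 14.5 in non-CSC libraries. CLDN1 in HCC1937 was at 81.9, 75.9 and 77.4 FPKM in CSCs and 84.1, 86.3 and 88.8 in non-CSCs. CLDN1 in SUM159PT was at 2.13, 2.14 and 2.37 FPKM. The non-CSCs of SUM149PT were the low group among the 4 sorted ones, and the CSCs of that line lay just under both fractions of HCC1937. The order was HCC1937 non-CSC, HCC1937 CSC, SUM149PT CSC, SUM149PT non-CSC, SUM159PT, and neighbours did not overlap, although the first 3 groups lay within 68.3 to 88.8 FPKM. The log2 fold change between fractions was 2.27 (SE 0.04995, adjusted p = 2.01e-06) in SUM149PT. In HCC1937 it was −0.14 (SE 0.0660, adjusted p = 0.186), with a 95% interval of −0.30 to 0.02. The difference between the lines was 2.41 (SE 0.0714, adjusted p = 8.78e-09), the 1 positive call among 9 members, against 12.2% of 16451 genes tested. Negative calls of this difference were made for 4 members, CLDN4, CLDN7, TJP3 and F11R, against 18.2% of all genes. The median difference was −0.62 for the 9 members and −0.08 for all genes.

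CLDN3, a claudin closely related to CLDN4, was nearly absent from SUM149PT. It read 0, 0.0981 and 0.0392 FPKM in its CSC libraries and 0.297, 0.135 and 0.231 in its non-CSC libraries. CLDN3 in HCC1937 was at 9.39, 7.33 and 6.11 FPKM in CSCs and 24.5, 26.0 and 18.7 in non-CSCs. In SUM159PT it was listed at 0 in the 3 libraries. HCC1937 was high and SUM149PT low, and only SUM149PT CSCs and SUM159PT overlapped among neighbours in the order of listed levels. In HCC1937 CLDN3 fell in CSCs with a log2 fold change of −1.59 (SE 0.202, adjusted p = 0.00343), and without replicate 2 the adjusted p was 0.0593. In SUM149PT the log2 fold change was −1.16 (SE 0.308, adjusted p = 0.0155), at levels near the pseudocount of 0.1. That call was kept in 7 of 15 alternatives. It was lost without replicate 1 (−0.75, adjusted p = 0.0818), without replicate 3 (−1.12, adjusted p = 0.107), after quantile normalization (−0.63, adjusted p = 0.170) and with the replicate block (adjusted p = 0.0572). It was also lost with a pseudocount of 0.01 (−2.55, with an adjusted p above 0.05) or 1 (−0.22), with the GC trend removed (−0.89) and at the limit of 0.0001. The difference of the CSC effect on CLDN3 between the lines was 0.43 (adjusted p = 0.368) and depended on the settings. It was 0.96 without replicate 1, −0.14 without replicate 2, −0.95 with a pseudocount of 0.01 and 1.26 with a pseudocount of 1, where it was called (adjusted p = 0.000178).

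CLDN3 and CLDN4 are neighbours on chromosome 7 of GRCh38, 29.3 kb apart with no annotated gene between them and on opposite strands (chr7:73768997-73770270 and chr7:73799542-73832693). Their levels parted between the lines. In SUM149PT non-CSCs the mean FPKM of CLDN4 was 1961 times that of CLDN3, and in HCC1937 non-CSCs it was 6.88 times.

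The 4 claudins together came to 678.0, 686.5 and 703.8 FPKM in non-CSCs of SUM149PT and to 94.7, 96.5 and 98.2 in its CSCs. In HCC1937 the sum was 469.6, 462.1 and 408.1 FPKM in non-CSCs and 183.1, 165.4 and 164.8 in CSCs. In SUM159PT it was 2.47, 2.61 and 2.98 FPKM. The sum was lower in CSCs of both sorted lines, and lowest in SUM159PT, with no overlap. CLDN1 made up 71.2 ± 0.935% of the sum in SUM149PT CSCs and 2.06 ± 0.0235% in its non-CSCs (SD, n = 3). CLDN4 had a share of 62.9 ± 0.544% and CLDN7 of 35.0 ± 0.524% in those non-CSCs. In HCC1937 CLDN1 had a share of 45.9 ± 1.12% for CSCs and 19.4 ± 2.04% for non-CSCs (SD, n = 3). CLDN1 thus had the highest share by FPKM in each CSC group and in SUM159PT, where it was 82.6 ± 3.39% of a small sum. Of the claudin family, 23 symbols were in the table and 10 had a mean FPKM of 1 or more over the 15 libraries. The 4 members held 65.03 to 65.3% of the family's FPKM in SUM149PT CSCs and 94.97 to 95.2% in its non-CSCs. Their part was 85.99 to 86.4% in HCC1937 CSCs, 94.5 to 95.1% in its non-CSCs and 20.5 to 23.4% in SUM159PT.

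**Figure D3:**
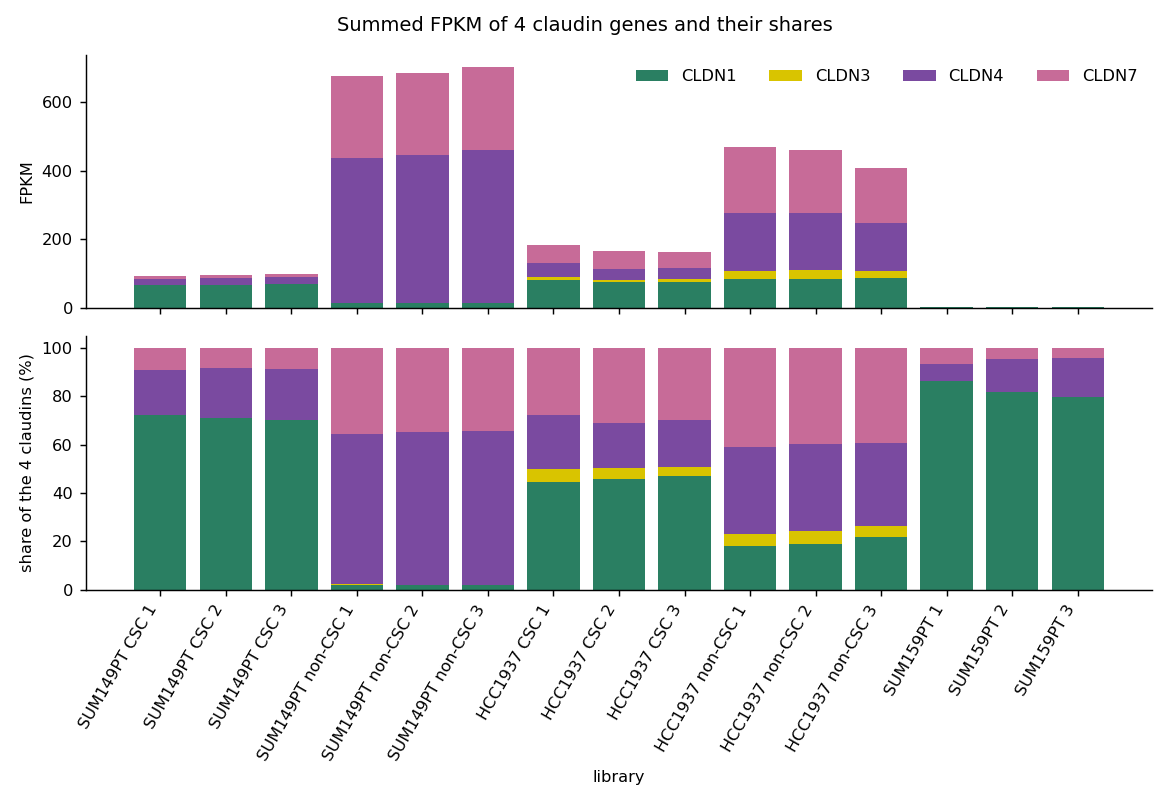
Summed FPKM of CLDN1, CLDN3, CLDN4 and CLDN7 in each of the 15 libraries (upper bars) and the share of each gene in that sum in percent (lower bars). CLDN1 made up 70.3 to 72.2% in SUM149PT CSCs and 2.03 to 2.08% in SUM149PT non-CSCs.

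OCLN encodes occludin, a MARVEL protein of the strands. Its SUM149PT libraries read 0.0656, 0.157 and 0.118 FPKM for CSCs and 0.828, 1.27 and 0.706 for non-CSCs. OCLN in HCC1937 was at 0.547, 0.423 and 0.381 FPKM in CSCs and 1.72, 1.85 and 1.82 in non-CSCs. OCLN in SUM159PT was at 0, 0.0379 and 0 FPKM. All groups were low, CSC libraries lay under non-CSC libraries in both lines, and neighbours in the order HCC1937 non-CSC, SUM149PT non-CSC, HCC1937 CSC, SUM149PT CSC, SUM159PT did not overlap. The log2 fold change was −2.26 (SE 0.254, adjusted p = 0.000422) in SUM149PT and −1.80 (SE 0.124, adjusted p = 0.000513) in HCC1937. With a pseudocount of 1 both dropped under 2-fold, to −0.79 and −0.95. The difference between the lines was −0.47 (adjusted p = 0.204), with −0.20 without replicate 1 and −0.76 without replicate 3. How reads were divided between OCLN and its pseudogene OCLNP1 is not given. OCLN lies on the forward strand at chr5:69492292-69558104, and MARVELD2 on the same strand 48.0 kb away, at chr5:69415065-69444330, with 2 annotated genes between them, neither of them coding. The OCLN windows each held 1 E-box match, shown here as 30 bases of the forward strand, chr5:69492502-69492531 and chr5:69492645-69492674, because this gene fell in both lines. Of these bases, all 30 before start 1 and 15 before start 2 are annotated untranslated sequence of OCLN.
OCLN start 1: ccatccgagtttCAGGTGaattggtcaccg
OCLN start 2: tctaggacgcagCAGGTGggactcgcggcg

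MARVELD2 encodes tricellulin, the MARVEL protein of corners between cells. Its SUM149PT libraries read 0.0196, 0 and 0.00902 FPKM for CSCs and 0.151, 0.180 and 0.152 for non-CSCs. MARVELD2 in HCC1937 was at 0.0371, 0.0912 and 0.271 FPKM in CSCs and 0.0652, 0.291 and 0.459 in non-CSCs. MARVELD2 in SUM159PT was at 0, 0 and 0.00999 FPKM. All 15 libraries were under 0.5 FPKM, and libraries of a group differed several-fold in HCC1937. In SUM149PT its mean was under 0.1 FPKM and it was not tested with limma, although its fractions did not overlap. In HCC1937 the fractions overlapped, with a log2 fold change of −0.63 and a 95% interval of −2.04 to 0.78. The 2 non-CSC groups and HCC1937 CSCs overlapped as neighbours in the order of levels, as did SUM149PT CSCs and SUM159PT.

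TJP3 encodes ZO-3, a scaffold found in epithelial cells. Its SUM149PT libraries read 0.814, 1.25 and 0.752 FPKM for CSCs and 11.1, 12.3 and 11.3 for non-CSCs. TJP3 in HCC1937 was at 2.76, 2.84 and 3.15 FPKM in CSCs and 17.8, 17.5 and 15.6 in non-CSCs. TJP3 in SUM159PT was at 0.104, 0.275 and 0.208 FPKM. Non-CSC libraries were high in both lines, and the groups followed the order of OCLN with no overlap between neighbours. The log2 fold change was −3.52 (SE 0.184, adjusted p = 2.05e-05) in SUM149PT and −2.50 (SE 0.0897, adjusted p = 0.000128) in HCC1937, the lowest of the 9 members in that line. The difference between the lines was −1.02 (SE 0.214, adjusted p = 0.00208), a call kept in 11 of 16 alternatives. It dropped under 2-fold without replicate 3 (−0.80), with a pseudocount of 1 (−0.51), after quantile normalization (−0.96) and with the GC trend removed (−0.91), and it did not pass the limit of 0.0001.

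TJP1 encodes ZO-1, a scaffold that many cell types without tight junctions also make. Its SUM149PT libraries read 0.943, 0.879 and 1.02 FPKM for CSCs and 2.17, 2.05 and 1.79 for non-CSCs. TJP1 in HCC1937 was at 0.654, 0.688 and 0.791 FPKM in CSCs and 0.914, 1.05 and 1.11 in non-CSCs. TJP1 in SUM159PT was at 0.0351, 0.0379 and 0.0284 FPKM. The fractions of each line did not overlap, but the spread of levels over the 4 sorted groups was small. In the order SUM149PT non-CSC, HCC1937 non-CSC, SUM149PT CSC, HCC1937 CSC, SUM159PT, HCC1937 non-CSCs and SUM149PT CSCs overlapped and other neighbours did not. The log2 fold change in SUM149PT was −1.005 (SE 0.0945, adjusted p = 0.000204), at the limit of a call, which was kept in 10 of 16 alternatives. It was −0.95 without replicate 1, −0.94 without replicate 2, −0.61 after quantile normalization, −0.94 with upper quartile scaling and −0.62 with a pseudocount of 1, and it did not pass the limit of 0.0001. HCC1937 had a log2 fold change of −0.47 (SE 0.104, adjusted p = 0.0237) for TJP1, under 2-fold. The mean FPKM of TJP3 was 5.78 times that of TJP1 in SUM149PT non-CSCs, while in CSCs of the line TJP1 was 1.01 times TJP3. In HCC1937 the ratio of TJP3 to TJP1 was 16.5 in non-CSCs and 4.10 in CSCs. The scaffold genes held 1 E-box match each, before start 4 of TJP1 on the reverse strand (chr15:29969120-29969149) and before start 2 of TJP3 on the forward strand (chr19:3721707-3721736), shown as 30 bases to set beside those of CLDN7.
TJP1 start 4: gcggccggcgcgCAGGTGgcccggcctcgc
TJP3 start 2: gagacctggaggaggaagaggggCAGGTGc

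F11R encodes JAM-A, an adhesion molecule with immunoglobulin-like domains. Its SUM149PT libraries read 6.88, 5.94 and 6.70 FPKM for CSCs and 42.7, 39.5 and 35.6 for non-CSCs. F11R in HCC1937 was at 49.2, 55.8 and 54.7 FPKM in CSCs and 89.3, 86.4 and 95.1 in non-CSCs. F11R in SUM159PT was at 2.57, 2.76 and 2.15 FPKM. CSC libraries were low in both lines, and in SUM149PT by more. The order was HCC1937 non-CSC, HCC1937 CSC, SUM149PT non-CSC, SUM149PT CSC, SUM159PT with no overlap between neighbours, so that CSCs of HCC1937 lay above non-CSCs of SUM149PT. The log2 fold change was −2.57 (SE 0.0966, adjusted p = 7.03e-06) in SUM149PT. In HCC1937 it was −0.76 (SE 0.0814, adjusted p = 0.00192), under 2-fold. The difference between the lines was −1.81 (SE 0.125, adjusted p = 1.21e-06). F11R overlaps AL591806.3, a coding gene on the same strand that is not in the table.

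**Figure D4:**
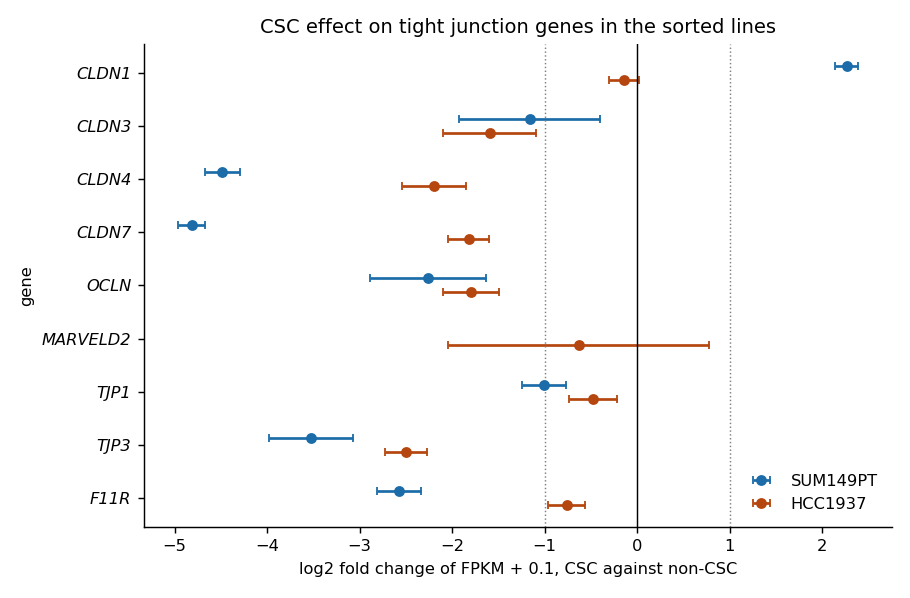
Log2 fold change of FPKM + 0.1 between CSCs and non-CSCs for each gene in SUM149PT (blue) and HCC1937 (orange), with 95% confidence intervals from limma on 3 libraries per fraction and dotted lines at 2-fold. CLDN1 was at 2.27 in SUM149PT and −0.14 in HCC1937, and MARVELD2 was not tested in SUM149PT.

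By library, CSCs of SUM149PT lay above all non-CSC libraries for 1 member and below them for 8, while 5666 of the 16037 genes tested lay above and 6958 below. The 8 include MARVELD2, which was too low to be among the 16037, and CLDN3, which reached the minimum only through non-CSCs. In HCC1937 CSCs lay below for 8 members and above for 0, while 3786 of 15582 genes lay below and 2971 above. Each of these 17 pairs of groups has an exact permutation p of 0.10 (two-sided), the smallest that 3 against 3 libraries allow, and MARVELD2 in HCC1937 had an exact permutation p of 0.40. At a stricter adjusted p of at most 0.0001, CLDN1 rose in SUM149PT, against 7.71% of all genes, and CLDN4, CLDN7, TJP3 and F11R fell, against 12.8%. In HCC1937 limma called 0 members and 0 of 15582 genes at that limit, while 7 members and 5886 genes had an unadjusted p under 0.05.

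Quantile normalization moved the median of all genes in SUM149PT from −0.11 to 0.10, and the share of calls that were higher in CSCs from 36.5 to 51.2%. Relative to that median, the log2 fold change of CLDN7 was −4.71 as deposited and −4.90 after quantile normalization, and that of CLDN1 was 2.38 and 2.25. Relative to it TJP1 was at −0.89 and −0.71, and CLDN3 at −1.05 and −0.74, and neither was called after quantile normalization. In HCC1937 rescaling to TPM moved the median from −0.03 to 0.09 and the higher share of calls from 31.1 to 42.2%. There CLDN4 was at −2.16 relative to the median as deposited and −2.16 after rescaling. For the difference between the lines, quantile normalization moved the median from −0.08 to 0.06 and the positive share of calls from 40.2 to 50.7%, and CLDN1 was at 2.49 and 2.36 relative to it.

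The lines were also set side by side within a fraction. Among CSCs, 5 of 8 tested members were higher in HCC1937, against 26.1% of 15952 genes, and limma called 0 lower, against 17.7%, with TJP1 the 1 member lower at an unadjusted p under 0.05. The 5 were CLDN3 (5.76), F11R (3.01), CLDN7 (2.56), TJP3 (1.57) and OCLN (1.38) as log2 fold changes. OCLN ran from 0.38 to 1.95 over the alternatives, and 13 of 15 kept its result. CLDN3 ran from 3.03 to 7.64. Its mean in SUM149PT CSCs, 0.0458 FPKM, was under the pseudocount, and it was tested only through HCC1937 CSCs, which fixed its direction. The median of the 8 members was 1.47, and that of all genes 0.24, which upper quartile scaling moved to 0.07 and quantile normalization to 0.06. CLDN1, at 0.19, was −0.05 relative to the median of all genes. Among non-CSCs, 3 of 9 members were higher in HCC1937, CLDN3 (6.19), CLDN1 (2.60) and F11R (1.20), against 22.0% of 16433 genes. CLDN4 was the 1 member called lower, at −1.45 (SE 0.0902, adjusted p = 2.86e-05), against 20.7% of all genes. The median was 0.54 for members and 0.10 for all genes, and −0.06 for all genes with upper quartile scaling. CLDN7 differed by −0.44 (adjusted p = 0.00429), under 2-fold. OCLN (0.91) and TJP1 (−0.90) were also under it. OCLN passed it without replicate 2 (1.11) and after quantile normalization (1.01), and TJP1 without replicate 3 (−1.03), with upper quartile scaling (−1.07) and after rescaling to TPM (−1.11).

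SUM159PT had the lowest mean of the 5 groups for each of the 9 members. Against SUM149PT CSCs, 6 members could be tested and 6 were lower, against 45.6% of 14976 genes lower and 21.3% higher. TJP1, at a mean of 0.0338 FPKM in SUM159PT, was tested only through SUM149PT CSCs, so only a lower call was possible. Its change shrank to −0.91 under alternatives, and 14 of 15 kept the result. CLDN3, OCLN and MARVELD2 were too low to be tested. Against HCC1937 CSCs, 8 of 8 tested were lower, against 48.3% of 15515 genes lower and 18.5% higher. CLDN3, OCLN and TJP1 averaged under 0.1 FPKM in SUM159PT and were tested only through HCC1937 CSCs, so only a lower call was possible. The change of OCLN shrank to −0.52 under alternatives (13 of 15 kept the result) and that of TJP1 to −0.73 (14 of 15). With limma, 0 members were higher in either comparison at an unadjusted p under 0.05. These comparisons share the SUM159PT libraries, and the lines differ in sorting as well, so line and sorting cannot be told apart. The log2 fold changes against SUM149PT CSCs were −5.53 for CLDN4, −5.21 for CLDN7 and −4.89 for CLDN1. Against HCC1937 CSCs they were −6.36 for CLDN4, −7.76 for CLDN7 and −5.08 for CLDN1. Both sets are far under the median of all genes, which was −0.76 against SUM149PT CSCs and −0.97 against HCC1937 CSCs.

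Those medians depended on the scaling, and FPKM summed over all genes was higher in SUM159PT than in each sorted library. The sum was 634750 to 652080 in SUM159PT libraries and 291280 to 366530 in sorted ones. Against SUM149PT CSCs the median was −1.83 after rescaling to TPM, −0.46 with upper quartile scaling and 0.04 after quantile normalization. The share of calls that were higher in SUM159PT was 31.8% as deposited, 12.1% after rescaling to TPM, 50.9% after quantile normalization and 20.5% with the GC trend removed. Against HCC1937 CSCs the median was −1.96 after rescaling to TPM, −0.46 with upper quartile scaling and −0.01 after quantile normalization. The higher share of calls was 27.6% as deposited, 13% after rescaling to TPM, 49.2% after quantile normalization and 39.0% with upper quartile scaling. Relative to the median, CLDN1 was at −4.14 against SUM149PT CSCs as deposited and −4.64 after quantile normalization. CLDN7 was at −4.45 and −4.29. F11R and TJP3 lay closer to the other genes, at −0.60 and −1.07 relative to the median as deposited. After quantile normalization F11R differed from SUM149PT CSCs by −0.23 (adjusted p = 0.102) and TJP3 by −0.52 (adjusted p = 0.133), and neither was called. Against HCC1937 CSCs, F11R was at −3.40 and TJP3 at −2.42 relative to the median.

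The rest of the tight junction list, 52 genes, moved in both directions. In SUM149PT 6 of 40 tested rose and 12 fell in CSCs, beside 12.8 and 22.1% of all genes, with a median of −0.22 beside −0.11 for all genes. In HCC1937 2 of 34 rose and 8 fell, beside 2.71 and 6.0% of all genes, with a median of −0.30 beside −0.03. The counts by role below stand beside these same shares of all genes. Among other claudins of SUM149PT, 1 of 8 tested rose and 3 fell. CLDN14, a claudin best known from the inner ear, rose from 1.90 ± 0.443 to 23.0 ± 1.11 FPKM (SD, n = 3), a log2 fold change of 3.55 (SE 0.170, adjusted p = 1.52e-05). CLDN23 fell from 5.95 ± 0.653 to 0.411 ± 0.128 FPKM (SD, n = 3), a log2 fold change of −3.59. In HCC1937, where 1 of 7 rose and 3 fell, CLDN11, known from myelin and the testis, rose from 2.33 ± 0.509 to 8.24 ± 0.711 FPKM (SD, n = 3), a log2 fold change of 1.80 (SE 0.177, adjusted p = 0.00148). CLDN8 fell there with −1.74, from 0.472, 0.239 and 0.285 FPKM in non-CSCs to 0.0992, 0 and 0 in CSCs. Its CSC values were under the minimum of 0.1 FPKM, so it was tested only through non-CSCs, which fixed its direction.

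Other genes of corners between cells and of the MARVEL family fell in both lines, 3 of 3 tested in SUM149PT and 2 of 2 in HCC1937. LSR, angulin-1, which recruits tricellulin, was in SUM149PT at 84.3 ± 4.24 FPKM for non-CSCs and 4.48 ± 0.0496 for CSCs (SD, n = 3). LSR in HCC1937 was at 107.2 ± 6.60 FPKM for non-CSCs and 26.6 ± 2.48 for CSCs (SD, n = 3). Its log2 fold changes were −4.20 and −2.01, and those of MARVELD3, a relative of occludin, were −3.57 and −2.00. Among other scaffolds, 1 of 13 rose and 3 fell in SUM149PT, beside 12.8 and 22.1% of all genes, and 1 of 12 rose and 2 fell in HCC1937. CGN, cingulin, which links the junction to actin, fell in both, with −4.10 and −2.27. PATJ, a scaffold of the Crumbs complex, fell with −2.77 in SUM149PT, and MPDZ, its relative, rose by 1.62 in HCC1937. Of apical polarity genes, 2 of 12 rose and 3 fell in SUM149PT, and 1 of 11 fell in HCC1937. CRB3, the Crumbs protein of epithelia, was in SUM149PT at 18.6 ± 0.831 FPKM for non-CSCs and 0.598 ± 0.177 for CSCs (SD, n = 3), and its log2 fold change was −4.77 there and −2.08 in HCC1937. PARD6A fell with −3.01 in SUM149PT. Of immunoglobulin-like adhesion genes, 2 of 4 rose in SUM149PT, JAM3 (3.52) and ESAM (1.78), both relatives of F11R. JAM3 read 0, 0 and 0 FPKM in HCC1937 CSC libraries and 0, 0.00974 and 0 in its non-CSC ones.

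**Figure D5:**
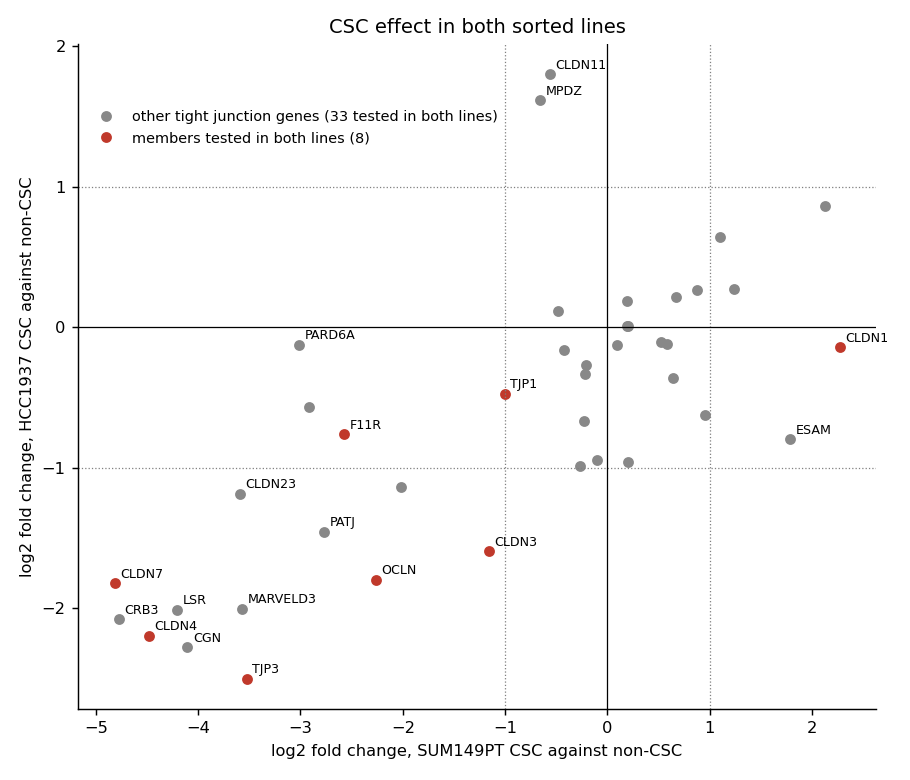
Log2 fold change between CSCs and non-CSCs in SUM149PT (horizontal) and HCC1937 (vertical), with one point per gene tested in both lines, members in red and other tight junction genes in grey, and dotted lines at 2-fold. CLDN4, CLDN7, TJP3, OCLN and CLDN3 lay low in both lines, beside LSR, CGN, CRB3 and MARVELD3, and CLDN1 lay at 2.27 and −0.14.

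Between the lines, the difference of the CSC effect was called positive for 7 and negative for 11 of 39 other tight junction genes tested, beside 12.2 and 18.2% of all genes, with a median of 0.19 beside −0.08. Among CSCs, 11 of 37 were higher and 10 lower in HCC1937 than in SUM149PT, beside 26.1 and 17.7% of all genes, with a median of −0.27 beside 0.24. Among non-CSCs 10 of 41 were higher and 11 lower, beside 22.0 and 20.7% of all genes, with a median of −0.10 beside 0.10. In SUM159PT 23 of 35 were lower and 1 higher than in SUM149PT CSCs, beside 45.6 and 21.3% of all genes, with a median of −1.36 beside −0.76. There 24 of 34 were lower and 3 higher than in HCC1937 CSCs, beside 48.3 and 18.5% of all genes, with a median of −1.68 beside −0.97.

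Of 16 regulators and adhesion partners of epithelial junctions, 4 rose and 11 fell in CSCs of SUM149PT, beside 12.8 and 22.1% of all genes, with a median of −2.67 beside −0.11 for all genes. In HCC1937, 3 rose and 9 fell of 15 tested, beside 2.71 and 6.0% of all genes, with a median of −2.20 beside −0.03. The log2 fold changes in SUM149PT and HCC1937 were −4.52 and −2.29 for CDH1, the cadherin of adherens junctions. They were −4.44 and −2.23 for EPCAM, an adhesion protein that binds CLDN7. For GRHL2, a Grainyhead factor known to drive claudin genes in epithelia, they were −4.24 and −2.47, and for its relative GRHL1 −2.75 and −2.35. OVOL1, a zinc finger factor of epithelia, had −4.45 and −2.96, and ELF3, an ETS factor, had −2.54 and −2.40. The epithelial splicing regulators had −4.00 and −2.20 for ESRP1, and −4.03 and −1.29 for ESRP2.

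ZEB1, a repressor that can bind E-box letters, read 7.39, 6.43 and 6.63 FPKM in SUM149PT CSC libraries and 0.778, 0.633 and 0.916 in non-CSC libraries. ZEB1 in HCC1937 was at 6.77, 7.22 and 7.67 FPKM in CSCs and 1.32, 1.71 and 1.87 in non-CSCs. CSC libraries were high in both lines with no overlap, and the log2 fold changes were 2.99 and 2.09. In SUM159PT, where the 9 members were lowest, ZEB1 was at 0.228, 0.117 and 0.268 FPKM, below the other groups. ZEB2, its relative, had 1.98 and 2.30. TWIST1 moved in opposite directions, at −1.02 and 1.63. SNAI1, the regulator with the highest mean FPKM over the 15 libraries, was in SUM149PT at 61.9 ± 3.27 for CSCs and 372.6 ± 5.33 for non-CSCs (SD, n = 3), a log2 fold change of −2.59. In HCC1937 it was at 0.12 (adjusted p = 0.483). SNAI2 rose in CSCs of SUM149PT (1.92) and had 0.37 (adjusted p = 0.0964) in HCC1937. TWIST2 rose by 1.89 in SUM149PT and had its highest mean in SUM159PT, at 38.8 ± 0.738 FPKM (SD, n = 3). OVOL2 fell with −3.92 in SUM149PT and had −2.11 (adjusted p = 0.0513) in HCC1937. GRHL3 fell with −2.37 in HCC1937 and had −0.60 in SUM149PT, under 2-fold. The part of these regulators in the levels of tight junction genes was not tested.

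Over the means of the 5 groups, on log2(FPKM + 0.1) centred gene by gene, the average profile of the 9 members was −0.87 in SUM149PT CSCs, 1.22 in SUM149PT non-CSCs, 0.89 in HCC1937 CSCs, 2.22 in HCC1937 non-CSCs and −3.46 in SUM159PT. Of 12158 other genes with a mean FPKM of 1 or more over the 15 libraries, the nearest by root mean square difference were ARL14 (0.17), TIAF1 (0.25), STYK1 (0.28), TAOK3 (0.31) and VNN1 (0.32). Among the members, CLDN4 and CLDN7 were each other's nearest, at 0.67, and OCLN and F11R were each other's nearest, at 0.70. CLDN1 was far from the rest, with TJP1 nearest at 1.48, and CLDN3 was nearest to F11R at 1.81.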

How the data were processed

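RNA from 15 libraries in 5 groups of 3 was described. The authors deposited FPKM values by gene symbol, and the submitters' processing notes name Bowtie2 and GRCh38. The quantification tool and its annotation are not given in the sources used here. The fits of limma 3.58.1 (R 4.3.3), lmFit followed by eBayes at defaults, used log2(FPKM + 0.1) of genes that reached a mean of 0.1 FPKM over the libraries compared, with Benjamini-Hochberg adjustment over all genes tested. There were 7 comparisons, 1 of them the difference of the CSC effect between lines as an interaction term. The pseudocount makes fold changes of low genes too small. Between 2 groups, a gene with a mean under 0.1 FPKM in 1 of them was tested only through the other, which fixed its direction. Calls needed an adjusted p of at most 0.05 and at least 2-fold, and a limit of 0.0001 was also used. Single members were compared by exact permutation tests. The fit was tested on simulated data.

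The 9 members are all named. Of the other tight junction genes, up to 2 called genes with the largest absolute change are named for each role and sorted line. Of the junction regulators, those called in both lines and up to 5 others with the highest mean FPKM are named. Other genes of these lists are counted and not named. Lists of epithelial, mesenchymal, sort, receptor, leukocyte, endothelial and fibroblast markers were also counted. The members and lists were chosen with earlier results of these data known, and the motifs after the sequences had been seen. Alternatives, 16 per comparison, were the pseudocount, the expression minimum, 3 scalings, a trended robust eBayes, a fit over 15 libraries, a replicate block, removal of a GC trend, the limits of a call and leaving out replicates. A GC value was found for 74.7% of all genes and 87.3% of those tested in SUM149PT, and for 9 of 9 members. No common step was found in low values, as the commonest ratio between the first 2 libraries of a group held at most 0.92% of low genes. Of 78 ribosomal protein symbols, 2 to 5 were listed at 0 in each library, so a 0 was read only as listed. Loci came from GENCODE 29 on GRCh38 and windows from RefSeq (GRCh38.p14). Figures were drawn with matplotlib 3.10.9, and scipy 1.17.1, numpy 2.4.6 and pandas 2.3.3 were run under Python 3.11.15.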

Additional observations from a re-analysis of the deposited data

Results flagged for a closer look

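For 5 genes the interaction test over the 12 sorted libraries gave a difference between the lines of at least 2-fold in the CSC effect. For CLDN1, CSC libraries lay above non-CSC libraries in SUM149PT. In HCC1937 they lay just below, a change of −0.14 that was not called (limma, adjusted p = 0.186). The difference of log2 fold changes, SUM149PT minus HCC1937, was 2.41 for CLDN1 (adjusted p = 8.78e-09). It was −2.29 for CLDN4 (adjusted p = 1.42e-06) and −3.00 for CLDN7 (adjusted p = 1.70e-08), with CSC libraries lower in both lines. It was −1.02 for TJP3 (adjusted p = 0.00208) and −1.81 for F11R (adjusted p = 1.21e-06), also lower in CSCs of both lines. The TJP3 difference stayed a call in 11 of 16 alternatives, from −0.51 to −1.23, and the other 4 genes kept theirs in 16 of 16.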

How the results depend on the processing

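Over the 7 comparisons, member results were recomputed 899 times under alternatives. Direction and side of the threshold held in 839, the call was lost in 39 and gained in 16, and the sign changed in 5. The sign changes concern small or uncalled values: the difference between lines for CLDN3 was −0.95 with a pseudocount of 0.01 and −0.40 after rescaling to TPM, and −0.14 to 0.96 leaving out replicates. With a pseudocount of 1 it was 1.26 and called (adjusted p = 0.000178). For OCLN it was 0.16 with a pseudocount of 1. For MARVELD2, HCC1937 against SUM149PT non-CSCs gave −0.062 to 0.82 leaving out replicates.

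The count of genes called followed the limits. In SUM149PT it was 5596, with 3109 at a pseudocount of 1, 3623 at a mean of at least 1 FPKM, 3292 at the cutoff of 0.0001 and 11993 with no fold limit, and the 8 members called became 5 at a pseudocount of 1 and 5 at that cutoff. In HCC1937 it was 1357, with 626, 872, 0 and 3985 under the same alternatives, and the 5 members called became 0 at the cutoff (limma, with 7 at an unadjusted p under 0.05). For the difference between lines it was 5004, with 2872 at a pseudocount of 1, 2922 at the cutoff and 10053 with no fold limit. Between the CSCs of the lines it was 6994, with 4287, 4378 and 12236, and the 5 members became 3 at the cutoff and 8 with no fold limit. Between the non-CSCs it was 7021, with 4269, 4508 and 12659, and the 4 members became 8 with no fold limit. A stricter limit or a larger pseudocount lowers the count by construction.

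With the replicate block, 5584 genes were called in SUM149PT and 1268 in HCC1937, and CLDN3 in SUM149PT had an adjusted p of 0.0572. Replicate numbers were not taken as pairs: the correlation of deviations between equal numbers was 0.136, 0.0287 and 0.12 in SUM149PT and −0.158, −0.0504 and −0.0355 in HCC1937. Leaving out a replicate leaves 2 libraries per group.

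Group means of CLDN3 and MARVELD2 in SUM149PT CSCs, and of CLDN3, OCLN, MARVELD2 and TJP1 in SUM159PT, were under the pseudocount of 0.1 FPKM, and without depth no floor can be given for them. The 3 libraries per group set the precision of each value. The cause was not tested for the results that changed.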
